A study of Danio rerio with 20 samples.

Results

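The long arm of zebrafish chromosome 4 is described here through its protein-coding gene models: 888 of the 38718 gene models in the table, taken as those on chromosome 4 (GRCz11) that start at or after base 28000000. The first starts at 28062473 and the last ends at 78068331. RNA came from larval zebrafish kept in beakers under 5 conditions: ERM, citalopram at 10 µg/L, citalopram at 1000 µg/L, ifosfamide at 1 µg/L and ifosfamide at 100 µg/L. ERM is the comparator, which the labels do not spell out; its label also carries "1 ug/L" without a compound. Of 5 beakers per treatment, 4 were sequenced, giving 20 poly(A)-selected libraries named by letter (A to D, or A, B, C and E for ERM). Strain, larval age, length of exposure and the number of larvae behind each library are not given in the labels. Citalopram is a selective serotonin reuptake inhibitor and ifosfamide is an alkylating prodrug used in chemotherapy.

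The arm is known as a repeat-rich, heterochromatic and late-replicating stretch of the zebrafish genome, and it carries much of the sex-linked signal found in wild zebrafish stocks. It holds long tandem arrays of genes for C2H2 zinc finger proteins, a class of DNA-binding proteins in which many members repress transposable elements in vertebrates. It also holds many of the fish-specific NLR genes, whose products carry a nucleotide-binding NACHT domain and often a SPRY domain, and which belong to a class of intracellular immune sensors. Copies within such arrays can be near-identical, so short reads are hard to place among them. The sources used here do not say how reads with several possible positions were counted, and levels of single array members are uncertain for that reason.

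By the domain column of the table, or by symbol or description, 384 members (43.2%) were classed as C2H2 zinc finger models and 214 (24.1%) as NACHT models. By the domain column alone, 33 were classed as SPRY models. These 384 were 47.5% of all protein-coding C2H2 models in the table, and the 214 were 62.8% of all NACHT models. A further 14 members were ms4a17a models, of 16 MS4A models in the table (MS4A genes encode small membrane proteins with 4 membrane-spanning segments, several of them found on leukocytes). Another 51 members had some other domain entry and 192 had none. Placeholder symbols made from clone names were carried by 662 members and proper symbols by 226. A symbol was not always unique: 73 symbols were carried by 171 members, and si:dkey-16p6.1 alone stood on 18 models. Among the members, 389 overlapped another gene model, 348 overlapped another member, and 245 overlapped a member on the same strand.

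Libraries held 10699832 to 17311011 reads assigned to gene models, and 1 library stood apart from the rest, library C of citalopram 1000 µg/L. It was the lowest library for 28.3% and the highest for 27.8% of the 19723 gene models with a mean of at least 1 FPKM (fragments per kilobase of gene model, scaled for library size). Some results that rest on it are given with and without it, and the others include it. Markers of larval tissues were found in every library, with summed levels of 699 to 1490 FPKM for 4 fast muscle genes (mylpfa was below 1 FPKM), 169 to 339 FPKM for 3 neuronal genes and 669 to 2840 FPKM for 3 liver genes. Among the 4 neighbours of the lower boundary, gramd4a (2.94 FPKM) and celsr1a (2.73 FPKM) lay just inside, and cerk (5.44 FPKM) and tbc1d22a (3.34 FPKM) just outside.

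Most members were detected, but at very low levels. With detection set at 10 reads or more summed over the 20 libraries, 731 of 888 members (82.3%) were detected. The share was 93.4% among the 587 protein-coding models of the short arm and 88.9% among the 23956 on other chromosomes and contigs. No read at all was counted for 50 members (5.63%), close to the 5.04% found outside the long arm. A mean of at least 1 FPKM was reached by 141 members (15.9%), against 73.3% on the short arm and 63.7% on other chromosomes. The median level was 0.163 FPKM over the members and 2.25 FPKM over all protein-coding models outside the arm, and 10 members reached 10 FPKM.

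Of the 3 domain families, C2H2 zinc finger genes had the widest gap between the share at 1 FPKM on the arm and elsewhere. On the arm 35 of 384 (9.11%) reached 1 FPKM, with a median of 0.139 FPKM. Outside the arm 267 of 425 (62.8%) did so, with a median of 1.5 FPKM. The part of read placement in this gap was not tested. The NACHT models were low in both places: 37 of 214 (17.3%) reached 1 FPKM on the arm and 32 of 127 (25.2%) elsewhere, and the medians were 0.279 FPKM and 0.277 FPKM. Nearly every NACHT member was detected (212 of 214), and none was without a read. The NACHT models are long (median 4080 bases, against 1608 for the C2H2 members), so the same FPKM gives them more reads. For SPRY models 3 of 33 reached 1 FPKM on the arm and 59 of 105 elsewhere. Of the 257 members outside these 3 families, 66 (25.7%) reached 1 FPKM and 35 had no read. Elsewhere 15323 of 23886 such models (64.2%) reached 1 FPKM. The medians were 0.12 FPKM on the arm and 2.29 FPKM elsewhere, so the low level was not limited to the array families. Of the 171 members that share a symbol 87.1% were detected, against 81.2% of the other 717, and the 18 models named si:dkey-16p6.1 were all detected, at 0.0455 to 2.47 FPKM.

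**Figure D1:**
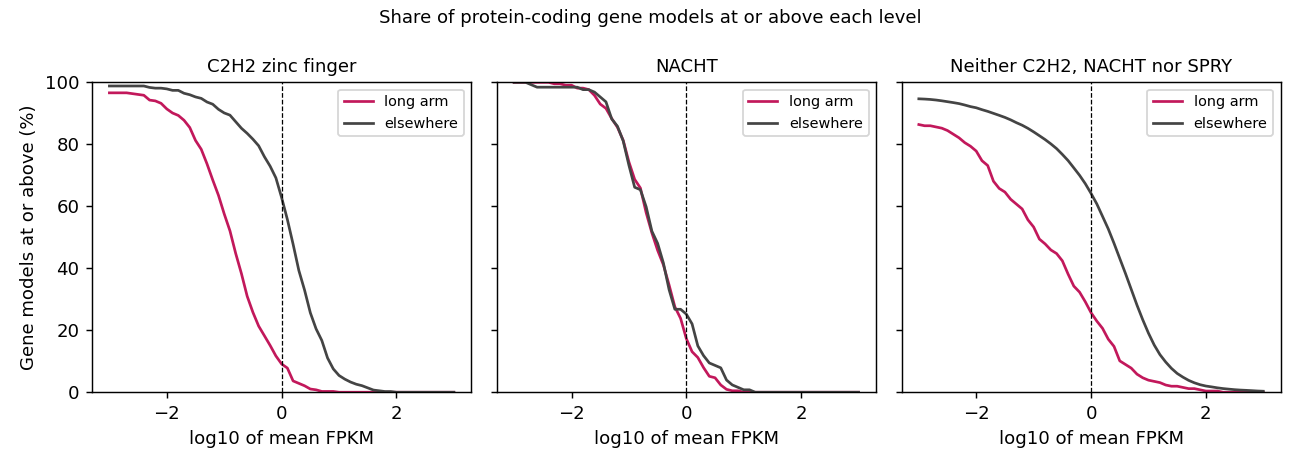
Share of protein-coding gene models (vertical axis, percent) whose mean FPKM over 20 libraries was at or above the level on the horizontal axis (log10 scale), on the long arm and elsewhere; the dashed line marks 1 FPKM. The C2H2 curves lie apart (9.11% and 62.8% at 1 FPKM), while the NACHT curves run close together (17.3% and 25.2%). The curves of models outside C2H2, NACHT and SPRY also lie apart (25.7% and 64.2%).

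Level also varied along the arm, with the last stretch before the chromosome end carrying most of the higher values. In segments of 5 Mb, the last segment held 170 members, of which 81 (47.6%) reached 1 FPKM, with a median of 0.954 FPKM. In the first 8 segments together, 45 of 600 members (7.5%) did so, with a median of 0.116 FPKM. The last 2 segments held 96 of 288 members (33.3%) at or above 1 FPKM and all 10 members above 10 FPKM. In the earlier of these, only 15 of 118 members (12.7%) reached 1 FPKM. Its median was 0.0946 FPKM and its highest value 5.566 FPKM, so most of the rise lay in the last segment. The C2H2 members of the earlier segment that reached 1 FPKM started between 72235562 and 72628893, near its end. The rise was seen within the C2H2 family. There 9 of 304 members (2.96%) reached 1 FPKM in the first 8 segments and 26 of 80 (32.5%) in the last 2. Among NACHT members the counts were 21 of 141 (14.9%) and 16 of 73 (21.9%). Among members outside the 3 families they were 13 of 135 (9.63%) and 53 of 122 (43.4%). Split between the last 2 segments in order, the counts were 7 of 39 and 19 of 41 for C2H2 members. They were 3 of 39 and 13 of 34 for NACHT members, and 5 of 33 and 48 of 89 outside the 3 families. Composition differed too, since families other than these made up 89 of the 170 members in the last segment.

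**Figure D2:**
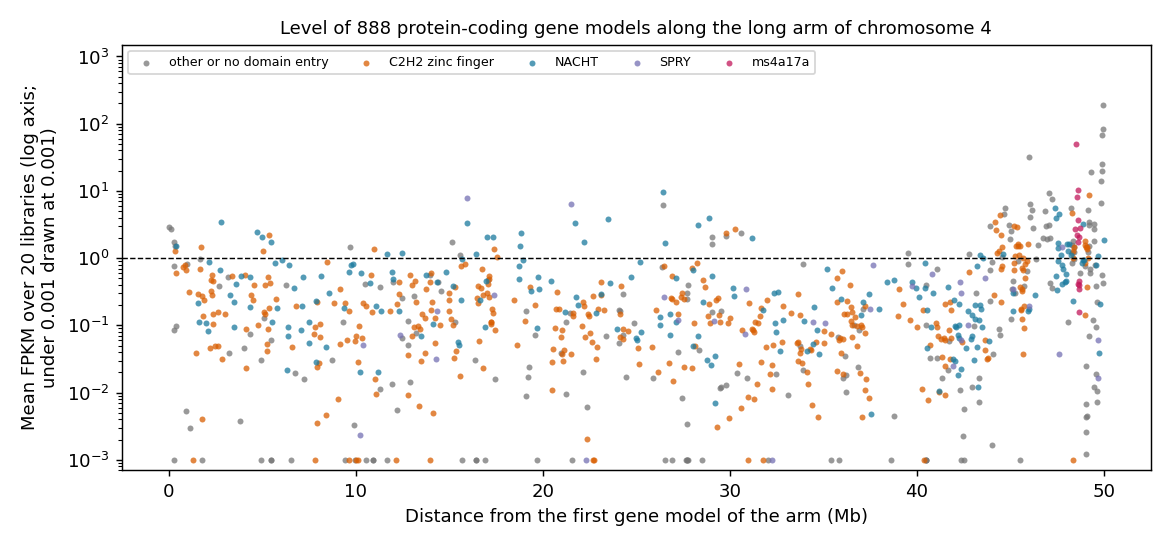
Mean FPKM over 20 libraries (log axis) of each of the 888 members against distance in Mb from the first gene model of the arm, coloured by family; the dashed line marks 1 FPKM. In the first 8 segments of 5 Mb, 45 of 600 members lie above the line, and in the last segment 81 of 170 do.

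The 10 highest members all lay in the last 2 segments, and most were named genes outside the array families. Their levels per kilobase are compared here, each as the mean of 20 libraries. A pair of models is named for the chaperonin subunit Cct2, which helps fold actin and tubulin: CCT2 (78022547 to 78026285, minus strand, 994 bases) at 189 FPKM and cct2 (78008298 to 78009682, plus strand, 330 bases) at 83.8 FPKM. Next came zgc:85975 (named ckap4 in the gene name table, an endoplasmic reticulum membrane protein) at 68.3 FPKM, a model that overlaps terfa on the opposite strand. Then followed ms4a17a.11 at 49.4 FPKM, RAB21 (a small GTPase of early endosomes) at 31.7 FPKM and arfgap3 (an activator of Arf GTPase activity at the Golgi) at 25 FPKM. Lower still were terfa (a telomere repeat-binding factor) at 19.5 FPKM, slco1d1 (an organic anion uptake transporter of fish) at 19 FPKM, pacsin2 (a membrane-bending protein of endocytosis) at 14 FPKM and ms4a17a.7 at 10.2 FPKM. Below 10 FPKM the first were the NACHT model ENSDARG00000102215 at 9.58 FPKM and CABZ01066312.1, without a domain entry, at 9.35 FPKM. The kit marks strand, but the strand setting of the counting is not given in the sources used here, so reads of overlapping models on opposite strands cannot be told apart.

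Within the array families the highest C2H2 members were zgc:174310 at 8.74 FPKM, zgc:171673 at 4.64 FPKM and zgc:175107 at 4.33 FPKM. Among NACHT models si:ch211-266c8.1 (5.49 FPKM) and si:dkey-165o8.2 (4.57 FPKM) came after ENSDARG00000102215. Among SPRY models the order was si:dkey-4j21.2 (7.86 FPKM), si:dkey-159n16.2 (6.47 FPKM) and si:ch211-232d10.1 (1.45 FPKM). The span of zgc:174310 holds the model zgc:162948 on the same strand. The model si:dkey-4j21.2 shares its start and strand with the NACHT model CABZ01015525.1. The named genes trim24 (a chromatin-reading co-regulator, 6.34 FPKM), ptprr and ptprb (receptor tyrosine phosphatases, 5.16 and 2.82 FPKM) and celsr1a (an atypical cadherin of planar cell polarity) also passed 1 FPKM.

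Each library held reads from more than 600 members, except 1. Members with at least 1 read numbered 621 to 675 in ERM, 613 to 657 in citalopram 10 µg/L, 652 to 689 in ifosfamide 1 µg/L and 629 to 670 in ifosfamide 100 µg/L. In citalopram 1000 µg/L, library C had 454 and the other 3 libraries had 662 to 680. Brought to the depth of the shallowest library, the expected numbers were 442 in library C and 593 to 673 in the other 19, so library C was low at equal depth too. Library C was low in both large families: 155 C2H2 members had a read there against 248 to 297 in the other libraries, and 160 NACHT members against 196 to 211. A read was counted in all 20 libraries for 357 members (40.2%, against 74.5% of the other protein-coding models), and in all 19 libraries other than C for 414. Only 26 members had reads in a single library. The arm took 0.168% of all reads in library C and 0.211% to 0.294% in the other libraries. With library C included, the ranges of the 5 groups all overlapped. Without it, citalopram 1000 µg/L (662 to 680) lay above citalopram 10 µg/L (613 to 657) and overlapped the other groups. Brought to equal depth, citalopram 1000 µg/L without library C (623 to 673) overlapped citalopram 10 µg/L (593 to 648) too.

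**Figure D3:**
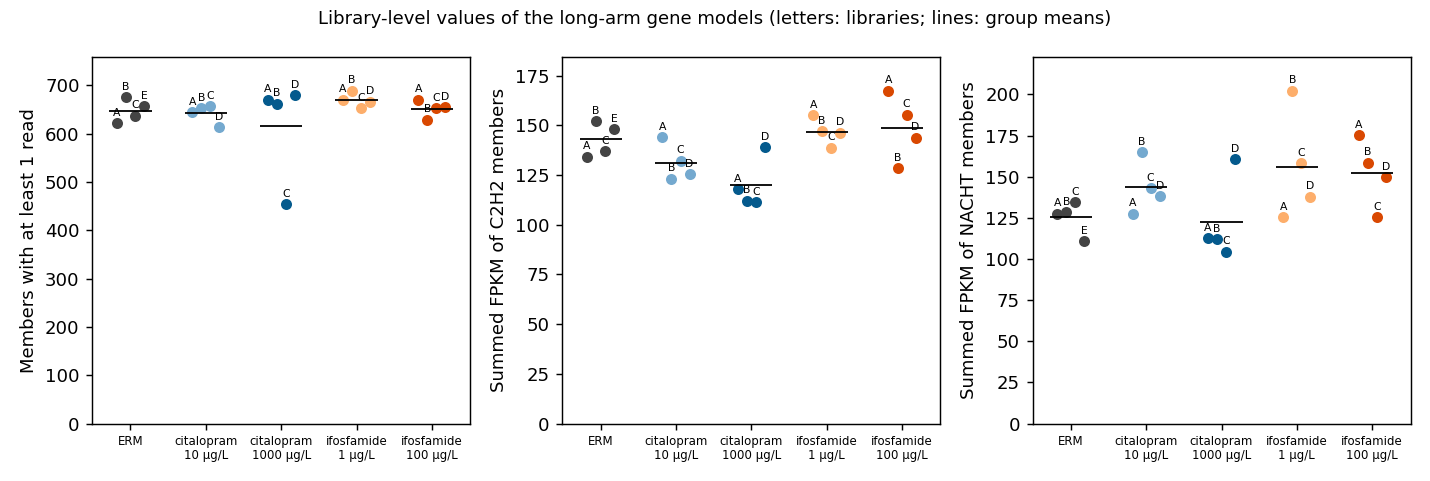
Values per library (points, with library letters) and group means (lines) in the 5 groups: members with at least 1 read, summed FPKM of the 384 C2H2 members and summed FPKM of the 214 NACHT members. Library C of citalopram 1000 µg/L lies apart in the left panel at 454, and the ranges of the groups overlap in every panel.

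Summed over the 384 C2H2 members, levels were 134 to 152 FPKM in ERM (142.9 ± 8.61, SD, n = 4) and 111 to 139 FPKM in citalopram 1000 µg/L (120.1 ± 13.0, SD, n = 4). Library D of citalopram 1000 µg/L, at 139 FPKM, fell within the ERM range, and the other 3 lay below it. The sums were 123 to 144 FPKM in citalopram 10 µg/L, 139 to 155 FPKM in ifosfamide 1 µg/L and 128 to 168 FPKM in ifosfamide 100 µg/L, all overlapping ERM. Summed NACHT levels were 111 to 135 FPKM in ERM (125.3 ± 10.3, SD, n = 4), 125 to 202 FPKM in ifosfamide 1 µg/L (155.9 ± 33.8, SD, n = 4) and 125.5 to 175 FPKM in ifosfamide 100 µg/L (152.2 ± 20.7, SD, n = 4). In citalopram 10 µg/L they were 128 to 165 FPKM (143.6 ± 15.7, SD, n = 4) and in citalopram 1000 µg/L 104.5 to 161 FPKM (122.4 ± 25.8, SD, n = 4). For NACHT members all these ranges overlapped ERM. In bulk RNA of larvae, fewer cells of a type and less RNA per cell cannot be told apart in any of these values.

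Below 10 FPKM, the median residual SD between libraries of a group was no larger for the members than for other genes of like level. The residual SD within groups, on the log2(FPKM + 1) scale, had a median of 0.266 over the 141 members with a mean of at least 1 FPKM and 0.291 over the 15681 other protein-coding models. From 1 to 2 FPKM the medians were 0.241 and 0.29, from 2 to 5 FPKM 0.279 and 0.295, and from 5 to 10 FPKM 0.269 and 0.279. Over the 10 members above 10 FPKM the median was 0.364, against 0.297 for other genes. C2H2 members had 0.211 (0.278 for C2H2 models elsewhere), NACHT members 0.255 (0.258 elsewhere) and ms4a17a members 0.378. These family values were not matched for level. With Poisson counting noise removed, the median coefficient of variation within groups was 31.5% for members with 10 to 50 reads per library (34.2% for other protein-coding models) and 23.8% for those with 50 to 200 reads (25.3%). For the 28 members with 200 to 1000 reads it was 21.2%, above the 19.7% of other models. Without library C the values at 50 to 200 reads were both 21.3%. At 10 to 50 reads they were then 28% and 29.9%, and at 200 to 1000 reads 19.8% and 16.5%. For C2H2 members the median coefficient was 27.2% at 10 to 50 reads (27% for C2H2 models elsewhere) and 16.2% at 50 to 200 reads (21.6%). NACHT members were at 33.4% and 26.5% in these 2 bands. Without library C the NACHT values were 31.6% and 25.6%, above the 29.9% and 21.3% of other protein-coding models. These are descriptions without a test of the difference.

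Library C was the lowest library for 46 of the 141 members (32.6%, against 28.3% of all gene models tested) and the highest for 23 (16.3%, against 27.8%). The other library that was often highest was ifosfamide 1 µg/L library B, for 23 members (16.3%), against 5.41% of all models. In citalopram 1000 µg/L, library D was lowest for 16 members (11.3%, against 9.55% of all). Close to the chromosome end, 8 members above 1 FPKM lie between the start of ttll1 (77919987), which encodes a tubulin-glutamylating enzyme, and the last member. This stretch was singled out after its values had been seen. Of the 8 models, 6 were highest in library C, and 4 were lowest in library D of the same group.

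The value of zgc:85975 shows how far that goes within a group. It was 87.7, 96.1, 196 and 31.9 FPKM in libraries A, B, C and D of citalopram 1000 µg/L, and 77.8, 51.5, 68.9 and 62.8 FPKM in libraries A, B, C and E of ERM. In citalopram 10 µg/L it was 52.3, 91.0, 84.9 and 77.5 FPKM, in ifosfamide 1 µg/L 39.8, 70.8, 44.9 and 34.8 FPKM, and in ifosfamide 100 µg/L 34.3, 72.0, 42.1 and 50.1 FPKM. Libraries C and D of citalopram 1000 µg/L were the highest and the lowest of all 20, so that group spanned every other. CCT2 behaved in the same way, with 241, 243, 353 and 83.5 FPKM in citalopram 1000 µg/L and 166 to 220 FPKM in ERM. By contrast, slco1d1 stayed within 15 to 23.7 FPKM in all 20 libraries.

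The most variable members included short models with few reads. AL935186.10, AL935186.8 and AL935186.9 are neighbours of 168, 291 and 432 bases with no domain entry. AL935186.10 was at 13.5, 0.766, 1.41 and 0 FPKM in libraries A to D of ifosfamide 1 µg/L, and its largest count was 30 reads. AL935186.8 was at 11.5, 3.54, 0 and 1.65 FPKM in the same libraries. Both were highest in library A of that group, where AL935186.9 stood at 4.57 FPKM, while its highest value, 7.34 FPKM, was in library B of citalopram 10 µg/L. BX640461.1, of 165 bases, varied from 1.39 to 11.4 FPKM on 2 to 26 reads and overlaps the NACHT model ENSDARG00000102215.

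Other variable members were longer than these and had more reads in all. The gene gramd4a, which encodes a GRAM domain protein, was at 1.39, 3.14, 2.49 and 1.91 FPKM in ERM and 1.87, 1.67, 0.217 and 4.99 FPKM in citalopram 1000 µg/L. It was at 6.59, 0.651, 4.96 and 3.7 FPKM in ifosfamide 100 µg/L, where library B was far below the other 3. CABZ01043955.1 (SLC2A13 in the gene name table, a proton-coupled inositol transporter) was at 0 FPKM in library C of citalopram 1000 µg/L and at 4.95 FPKM in library A of ifosfamide 100 µg/L. For gramd4a every group overlapped every other. For CABZ01043955.1 the groups at citalopram 10 µg/L (1.15 to 1.72 FPKM) and ifosfamide 1 µg/L (1.89 to 3.2 FPKM) did not overlap, and all other pairs did. The tested members with most libraries under 3 reads were AL935186.10, with 7 such libraries, and ENSDARG00000094500 and BX088712.1, with 2 each.

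For the comparison of groups, all 19723 gene models with a mean of at least 1 FPKM were fitted together with limma and p-values were adjusted over all of them by the Benjamini-Hochberg method, so 141 members were tested. Replicates are separate beakers by the labels. The 4 comparisons with ERM share the same 4 ERM libraries and are not independent of each other. A 95% interval of a member's log2 difference had a median half-width of 0.397, with a range from 0.251 to 1.35, so smaller differences were within the error. No member was called at an adjusted p under 0.05 in any of the 6 comparisons, nor in the F test over the 4 contrasts with ERM. Counting on recovered reads with voom called none either.

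In larvae exposed to citalopram at 1000 µg/L against ERM, C2H2 members tended to lower values and no member passed the test. Of the 141 members 0 were called by limma and 0 by voom, against 0.0304% of all gene models (6 of 19723). At an unadjusted p under 0.05 there were 17 members (12.1%, against 7.27% of all), 3 higher and 14 lower; 4.17% of all models were lower by that measure. The groups did not overlap for 6 members (4.26%, against 3.68% of all). The median difference of the members was -0.08 (log2), with 83 of 141 below 0, and that of all models 0.00. Of 35 C2H2 members 28 were below 0, with a median of -0.13, and 7 were lower at an unadjusted p under 0.05. C2H2 models elsewhere had a median of -0.12, with 191 of 267 below 0. Without library C the medians were -0.17 on the arm (27 of 35 below 0) and -0.04 elsewhere, and without library D they were -0.22 and -0.20. Without library D, 10 members were higher and 27 lower at an unadjusted p under 0.05, and without library C 2 were higher and 10 lower. The 15681 other protein-coding models also moved, with 1371 higher and 899 lower without library D and 522 higher and 837 lower without library C, against 486 and 620 with all libraries.

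CU570689.2 (73548320 to 73562122), a C2H2 model, had the smallest p of that comparison. It was at 1.41, 1.2, 1.41 and 1.62 FPKM in ERM libraries A, B, C and E and at 0.704, 0.618, 0.61 and 0.436 FPKM in libraries A to D of citalopram 1000 µg/L. All 4 exposed libraries lay below all ERM libraries, and the log2 difference was -0.60 (SE 0.136, adjusted p = 0.144). In the other groups it lay between 0.755 and 1.6 FPKM, so the citalopram 1000 µg/L libraries were the 4 lowest of the 20.

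si:dkey-19h16.8, a model of 523 bases without a domain entry, was at 2.2, 3.26, 3.96 and 2.02 FPKM in ERM and at 1.81, 1.14, 0.878 and 0.274 FPKM in citalopram 1000 µg/L. These groups did not overlap, with a log2 difference of -0.96 (SE 0.278, adjusted p = 0.292) on counts of 2 to 29 reads per library. The NACHT model si:dkey-71l4.3 was at 1.85, 1.9, 1.59 and 1.22 FPKM in ERM and at 0.956, 0.821, 0.792 and 1.35 FPKM after citalopram 1000 µg/L. Library D of the latter lay within the ERM range, and the log2 difference was -0.42 (SE 0.126, adjusted p = 0.325).

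CT027578.1 (znf1120 in the gene name table), a C2H2 model at 33399196 to 33405483, was among the 3 members with the smallest p in the F test, in which 0 of 141 members were called by limma or voom (0% of all models), 12 members (8.51%, against 5.77% of all) had an unadjusted p under 0.05 and the smallest adjusted p of a member was 0.568. It was at 2.47, 3.08, 2 and 2.98 FPKM in ERM, 1.67, 1.58, 2.27 and 1.15 FPKM in citalopram 10 µg/L and 1.09, 1.14, 2.45 and 1.48 FPKM in citalopram 1000 µg/L. Each citalopram group overlapped ERM through its library C. In ifosfamide 1 µg/L it was at 2.06 to 2.76 FPKM and in ifosfamide 100 µg/L at 2.16 to 3.25 FPKM, within or close to the ERM range.

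At citalopram 10 µg/L against ERM, the 4 largest log2 differences among the members belonged to ms4a17a models, and none passed the test. The count called was 0 by limma and by voom, against 0.0101% of all gene models (2 of 19723). An unadjusted p under 0.05 was found for 7 members (4.96%, against 2.42% of all), 6 of them higher (1.27% of all models were higher by that measure), and the groups did not overlap for 5 (3.55%, against 2.51%). The median over the 141 members was 0.02 (log2). Of the 9 ms4a17a members tested, 7 were above 0, the median was 0.37 and 4 had an unadjusted p under 0.05. C2H2 members had a median of -0.05 and NACHT members of 0.11. Of 37 NACHT members 27 were above 0, and of 32 NACHT models elsewhere 18, with a median of 0.02.

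The ms4a17a array spans 277 kb (76509294 to 76785895) with 14 models, all on the plus strand and all detected. The gene ms4a17a.11 gave 58.4% of the array's summed level of 84.6 FPKM, 9 models reached 1 FPKM and 5 did not. A pair of models carries the symbol ms4a17a.10, and the one named below is ENSDARG00000093546 (76775837 to 76785895), which the gene name table lists as si:ch73-56d11.5. It was at 1.15, 1.37, 1.64 and 1.34 FPKM in ERM and at 2.73, 7.11, 2.67 and 3.79 FPKM in citalopram 10 µg/L. No library of the citalopram 10 µg/L group reached down to the ERM range, and the log2 difference was 1.02 (SE 0.274, adjusted p = 1). That difference became 0.77 without library B of citalopram 10 µg/L. This model was also above ERM in all libraries of citalopram 1000 µg/L, at 2.96, 3.78, 2.84 and 2.58 FPKM, and of ifosfamide 1 µg/L, at 1.7, 3.63, 3.9 and 1.79 FPKM. In ifosfamide 100 µg/L it was at 1.99, 5.13, 1.55 and 2.23 FPKM, overlapping ERM by library C.

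The paralogue ms4a17a.3 was at 0.874, 1.12, 2.33 and 0.616 FPKM in ERM and at 2.21, 3.58, 1.66 and 3.28 FPKM in citalopram 10 µg/L. ERM library C lay within the exposed range, and the log2 difference was 0.74 (SE 0.26, adjusted p = 1). A further pair of paralogues, chosen after their values had been seen, was high in library B of citalopram 10 µg/L. ms4a17a.5 was at 2.64, 11.2, 3.82 and 4.98 FPKM there against 1.94 to 2.97 FPKM in ERM, and its log2 difference of 0.80 became 0.45 without library B. ms4a17a.2 was at 1.37, 5.34, 2.31 and 2.92 FPKM against 1.02 to 1.49 FPKM in ERM, and its log2 difference of 0.75 became 0.50 without library B. Both overlapped ERM through library A of citalopram 10 µg/L.

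Library B of citalopram 10 µg/L was the highest of all 20 libraries for 6 of the 14 ms4a17a models and among the 3 highest for 12. It was the highest for 3.62% of all gene models tested. The 6 include ms4a17a.12, ms4a17a.4 and ENSDARG00000095695, with means of only 0.351, 0.157 and 0.465 FPKM. Library C of citalopram 1000 µg/L was the highest for 4 of the 14, and for 27.8% of all gene models tested. Among these 4 was ms4a17a.11 at 88.4 FPKM, where the other 19 libraries lay between 36.6 and 58.7 FPKM. Library B of citalopram 10 µg/L also had the highest sum of the 2 intestine markers, 73.4 FPKM against at most 39.5 FPKM in the other libraries. That sum came from fabp2 (48.5 FPKM, against 1.61 to 10.6 elsewhere), a fatty acid-binding protein of enterocytes, while vil1, a brush-border protein, was at 25 FPKM and within the range of the others. Of 10 leukocyte markers, 6 reached 1 FPKM, while ptprc, coro1a, lyz and mpeg1.1 did not. The sum over the list ranged over 22.3 to 35.3 FPKM in ERM, 25.6 to 37.8 in citalopram 10 µg/L, 25.9 to 42.9 in citalopram 1000 µg/L, 21.0 to 43.3 in ifosfamide 1 µg/L and 27.2 to 38.7 in ifosfamide 100 µg/L, and library B of citalopram 10 µg/L ranked 6 of 20. The part of these cell types in the ms4a17a values was not tested.

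**Figure D4:**
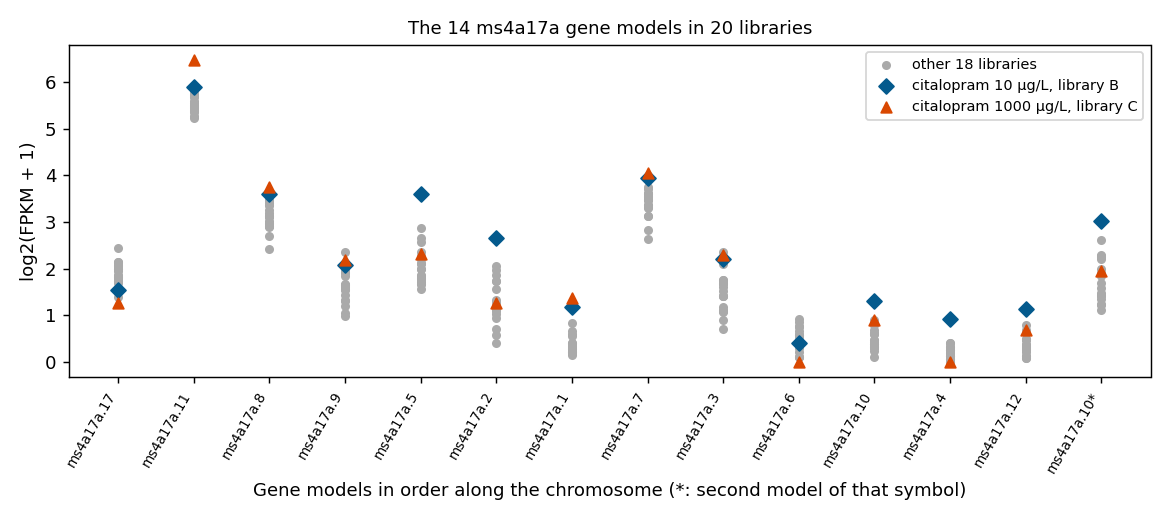
Level of each of the 14 ms4a17a gene models (log2(FPKM + 1), vertical axis) in 20 libraries, in order along the chromosome, with library B of citalopram 10 µg/L and library C of citalopram 1000 µg/L marked. Library B is the highest of 20 for 6 models and library C for 4.

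The MHC class II-related model si:ch73-158p21.3 (mhc2d4b in the gene name table; MHC class II presents peptides to T cells) was the other member with one of the smallest p-values at citalopram 10 µg/L. It was at 1.15, 1.26, 0.877 and 0.937 FPKM in ERM and at 1.59, 1.86, 1.67 and 2.07 FPKM in citalopram 10 µg/L. The groups did not overlap, with a log2 difference of 0.44 (SE 0.165, adjusted p = 1). Libraries of citalopram 1000 µg/L, at 1.43, 1.57, 2.03 and 1.79 FPKM, also all lay above ERM.

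At ifosfamide 1 µg/L against ERM, NACHT members lay mostly above 0, as did NACHT models elsewhere in the genome, and no member was called. Limma and voom each called 0 of 141, with 0% of all gene models called. At an unadjusted p under 0.05 there were 10 members (7.09%, against 4.8% of all), 8 higher and 2 lower (1.84% and 2.96% of all), and the groups did not overlap for 8 (5.67%, against 6.98% of all). Of 37 NACHT members 26 were above 0, with a median of 0.20 (log2) and 5 higher at an unadjusted p under 0.05. Of the 32 NACHT models elsewhere 28 were above 0, with a median of 0.27. Summed over all NACHT members of the arm, library B of ifosfamide 1 µg/L was at 202.4 FPKM. Libraries A, C and D of that group were at 125.3, 158.2 and 137.9 FPKM. A NACHT median without library B is not given here. The median over all 141 members was 0.01, with 73 above 0. Under scaling to total reads the median of all gene models moved from -0.01 to 0.13, 102 of the 141 members and 11027 of the 15681 other protein-coding models were above 0, and the NACHT median of 0.30 lay above that shift; C2H2 members had a median of 0.01 as deposited and 0.12 so scaled.

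The NACHT model si:dkey-165e24.1 was at 2.52, 2.75, 3.46 and 1.8 FPKM in ERM and at 3.71, 7.78, 5.01 and 2.91 FPKM in ifosfamide 1 µg/L. The groups overlapped, with a log2 difference of 0.64 (SE 0.237, adjusted p = 0.787) that became 0.42 without library B of ifosfamide 1 µg/L. A second NACHT model, si:dkey-71l4.2, was at 1.46, 1.1, 1.18 and 1.15 FPKM in ERM and at 1.32, 2.84, 2.05 and 1.79 FPKM in ifosfamide 1 µg/L. Library A of the exposed group fell within the ERM range, and the log2 difference was 0.41 (SE 0.17, adjusted p = 0.787). The smallest p belonged to zgc:153116 (76466751 to 76474716), which has no domain entry and overlaps ftr51 on the opposite strand. It was at 0.3, 1.31, 0.533 and 1.04 FPKM in ERM and at 1.49, 1.7, 1.39 and 1.41 FPKM in ifosfamide 1 µg/L, without overlap, and the log2 difference was 0.51 (SE 0.182, adjusted p = 0.787).

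At ifosfamide 100 µg/L against ERM, with the same ERM libraries as before, NACHT members again lay mostly above 0 and no member was called. Of the 141 members 0 were called by limma and 0 by voom, and 0% of all gene models were called. There were 8 members with an unadjusted p under 0.05 (5.67%, against 3.27% of all), 7 of them higher (1.48% of all), and 6 without overlap (4.26%, against 4.3% of all). Of 37 NACHT members 27 were above 0 with a median of 0.18, and of 32 elsewhere 30 with a median of 0.17. Scaled to total reads, 99 of the 141 members were above 0 in place of 75, while the median of all gene models moved from -0.01 to 0.10 and 10470 of the 15681 other protein-coding models were above 0 in place of 7399. The gene zgc:153116 was at 1.69, 1.29, 2.41 and 1.38 FPKM, and the log2 difference was 0.60 (SE 0.182, adjusted p = 0.92). ERM library B, at 1.31 FPKM, was above library B of the exposed group.

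si:ch73-170d6.2, without a domain entry, was at 1.98, 2.6, 2.18 and 1.41 FPKM in ERM and at 4.65, 3.27, 2.62 and 2.75 FPKM in ifosfamide 100 µg/L. All 4 exposed libraries were above ERM, with a log2 difference of 0.50 (SE 0.177, adjusted p = 0.92). ms4a17a.3 was at 2.38, 4.1, 1.88 and 2.05 FPKM in ifosfamide 100 µg/L, with a log2 difference of 0.71 from ERM (SE 0.26, adjusted p = 0.92), and here too ERM library C lay within the exposed range.

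Between the doses of citalopram, most members were lower at 1000 µg/L than at 10 µg/L. Of 141 members 101 had a log2 difference below 0, with a median of -0.09, against 0.00 for all gene models. None was called by limma or voom (0% of all models), and the smallest adjusted p was 1. An unadjusted p under 0.05 was found for 10 members, all lower (7.09%, against 3.67% of all models in both directions and 2.18% lower), and the groups did not overlap for 2 (1.42%, against 1.28%). Of 37 NACHT members 30 were below 0, with a median of -0.17, and of 35 C2H2 members 28, with a median of -0.09. Outside the arm, 21 of 32 NACHT models (median -0.09) and 160 of 267 C2H2 models (median -0.05) were below 0. Without library C 102 of 141 members were below 0, and without library D 100. At an unadjusted p under 0.05, 1 member was higher and 9 lower without library C, and 6 were higher and 18 lower without library D. Of the 15681 other protein-coding models, 211 were higher and 459 lower without library C, and 865 higher and 502 lower without library D. Without library C, 15 of 32 NACHT and 109 of 267 C2H2 models outside the arm were below 0, against 30 of 37 and 27 of 35 on it. Without library D the counts were 27 of 32 and 188 of 267 outside the arm, against 34 of 37 and 27 of 35 on it.

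znf1038, a C2H2 model (45610254 to 45628865), was at 1.86, 1.52, 0.899 and 1.1 FPKM in citalopram 10 µg/L and at 0.524, 0.836, 0.0848 and 0.424 FPKM in citalopram 1000 µg/L. The value of 0.0848 FPKM, in library C, came from 1 read. The groups did not overlap, with a log2 difference of -0.68 (SE 0.209, adjusted p = 1). For CU570689.2 the values at 10 µg/L were 1.21, 0.976, 1.48 and 0.755 FPKM, all above those at 1000 µg/L, with a log2 difference of -0.39 (SE 0.136, adjusted p = 1). The NACHT model si:dkey-165o8.2 was at 4.13, 6.5, 6.22 and 5.04 FPKM at 10 µg/L and at 2.93, 3.1, 2.81 and 4.85 FPKM at 1000 µg/L. Its groups overlapped through library A of 10 µg/L and library D of 1000 µg/L, and the log2 difference was -0.56 (SE 0.198, adjusted p = 1).

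Between the doses of ifosfamide the members differed little. None was called by limma or voom (0% of all models), 1 had an unadjusted p under 0.05 (0.709%, against 0.852% of all, 0.456% higher and 0.395% lower), the groups did not overlap for 2 (1.42%, against 1.17%), and the median log2 difference was 0.01. The C2H2 model zgc:175107 was at 3.78, 3.33, 4.71 and 3.98 FPKM at 1 µg/L and at 6.94, 4.57, 5.03 and 4.83 FPKM at 100 µg/L. The groups overlapped, with a log2 difference of 0.35 (SE 0.156, adjusted p = 1). Another C2H2 model, si:ch73-120g24.4, was at 2.72, 1.89, 2.48 and 2.82 FPKM at 1 µg/L and at 3.03, 3.34, 3.46 and 2.95 FPKM at 100 µg/L. These did not overlap, with a log2 difference of 0.28 (adjusted p = 1). ms4a17a.3 was at 1.1, 2.35, 1.26 and 1.15 FPKM at 1 µg/L, with a log2 difference of 0.54 at 100 µg/L that became 0.36 without library B of ifosfamide 100 µg/L, and those groups overlapped.

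**Figure D5:**
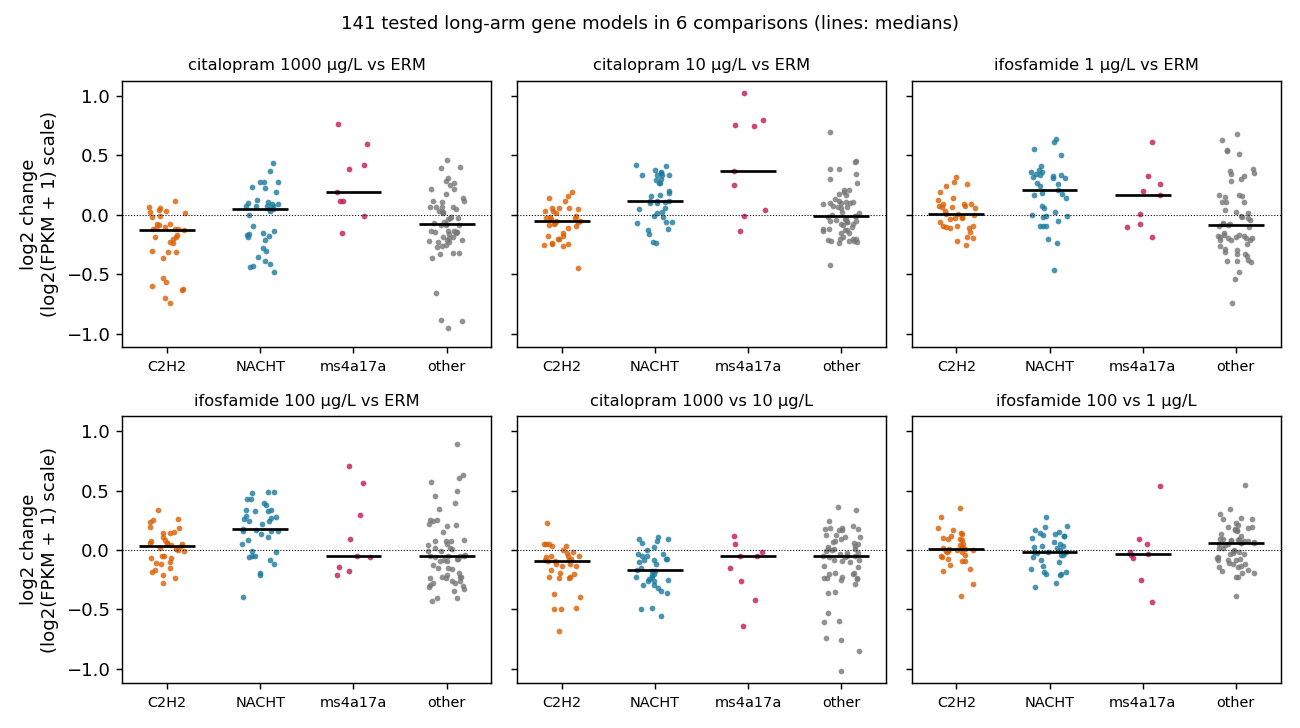
Log2 difference (log2(FPKM + 1) scale) of the 141 tested members in each of 6 comparisons, by family, with the median as a line; other holds SPRY members too. C2H2 members centre at -0.13 for citalopram 1000 µg/L against ERM. NACHT members centre at 0.11 for citalopram 10 µg/L and at 0.20 and 0.18 for ifosfamide 1 and 100 µg/L against ERM.

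Switching on or off between groups was looked for over all 888 members in the 20 ordered pairs of groups, as at least 3 reads in each library of one group and none in any library of the other. A single member met this in a single pair. The same count was not made for gene models outside the arm, so whether 1 of 888 is few or usual is not known. CU207245.1, a C2H2 model (30718997 to 30724331) of 648 bases with 28 reads in all, had 3, 5, 3 and 4 reads in ifosfamide 1 µg/L and 0 in each citalopram 10 µg/L library. It had 0, 1, 0 and 0 reads in ERM, 0, 1, 0 and 1 in citalopram 1000 µg/L, and 2, 0, 2 and 6 in ifosfamide 100 µg/L. At these counts no difference between groups was tested.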

How the data were processed

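The authors deposited 1 table of FPKM values for 20 libraries; fastp, HISAT2, featureCounts, DESeq2 and the GRCz11 build are named in the submitters' processing notes, without versions or roles. Multiplying FPKM by gene length and dividing by each library's smallest step gave whole reads for 100% of values (within 0.01); the deposited scaling matched median-of-ratios size factors within 1e-06. Reads assigned to gene models numbered 10699832 to 17311011 per library. Families were read from the table's domain column, symbols and gene descriptions, and 748 of 888 IDs matched the gene name table. limma 3.58.1 (R 4.3.3, intensity trend, two-sided, 15 residual degrees of freedom) was fitted to log2(FPKM + 1) of all 19723 gene models with a mean of at least 1 FPKM; a fold change on this scale understates that of low genes. Calls required a Benjamini-Hochberg adjusted p under 0.05. P-values measure the spread between beakers of one experiment. Intervals cover no uncertainty in read placement. The code was tested on simulated data.

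Members and lists were chosen with earlier results of these data known. Members named were, per comparison, the 3 with the smallest p where none was called; the 12 highest; the 8 with the largest residual SD (1 is not reported here); the 6 with most libraries under 3 reads; and the 3 highest of each family. ms4a17a as a family, ms4a17a.5, ms4a17a.2, CU207245.1 and ttll1 were chosen after their values were seen. Alternatives were another pseudocount, filter, scaling, voom, library weights, a replicate block, fewer groups and each library left out. Pancreas, epidermis, lens, photoreceptor and germ cell markers were also summed.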

Additional observations from a re-analysis of the deposited data

Results flagged for a closer look

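Within groups of 4 libraries, 46 members were examined for a single library far from the other 3, which is 230 sets of values. In 10 sets 1 library stood apart, and chance alone flags about 1 in 20, or 11.5 of 230. The members and values are FPKM.

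In ERM, library B was high for CABZ01043955.1 (3.07, others 0.734 to 1.1). ERM library C was low for si:dkey-4j21.2 (5.48, others 7.63 to 8.01) and for celsr1a (2.22, others 2.64 to 2.69). In citalopram 10 µg/L, library A was low for RAB21 (28.6, others 35.5 to 36.1) and library B high for celsr1a (3.44, others 2.82 to 2.88). In citalopram 1000 µg/L, library D was high for si:dkey-165o8.2 (4.85, others 2.81 to 3.1) and library C low for zgc:174310 (4.23, others 8.47 to 9.25). In ifosfamide 1 µg/L, library B was high for ms4a17a.3 (2.35, others 1.1 to 1.26) and library A for AL935186.10 (13.5, others 0 to 1.41). In ifosfamide 100 µg/L, library B was high for CABZ01066312.1 (11, others 8.25 to 8.51).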

How the results depend on the processing

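The count of 0 members called held in 194 of 202 fits of the 7 tests, including each library left out in turn (0 to 0), pseudocount 0.1, lower filters, total-read scaling, voom and only the groups compared. The exceptions all weight the libraries. limma array weights gave 35 members for citalopram 1000 µg/L against ERM, 1 for ifosfamide 100 µg/L against ERM, 9 between the citalopram doses and 73 in the F test. That estimation stopped before it converged, with a weight of 15.7 for library A of citalopram 1000 µg/L and 0.128 to 2.94 for the others, and called 9153 of 19723 gene models in the F test. Weights estimated gene by gene, chosen after seeing the data, gave 1, 17, 4 and 17 members for citalopram 1000 µg/L, ifosfamide 1 µg/L and ifosfamide 100 µg/L against ERM and the F test. Why the weighted fits differ was not tested. The replicate letter as a block gave 0 members called in every test. Of 36 same-letter correlations 13 were over 0.1 (range -0.435 to 0.424), and 6 of 20 libraries were closest to their own letter. No values for different letters were set beside these, so they do not decide whether the letters pair the libraries. Members detected were 727 to 731 with a library left out, 838 with any read, 174 with 10 reads in every library and 141 with a mean of 1 FPKM. Log2 differences of named members kept their direction in all 520 refits, and 5 passed the threshold, all under array weights. Most of these members were named for a small p in the same libraries. A kept direction was therefore likely beforehand and gives no separate support. The median residual SD ranged from 0.184 to 0.382. Detection by similarity of members' proteins was not run, since no protein sequences were used here. Depth limits low members: 157 had under 10 reads in all.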

Other observations

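Summed levels of the remaining marker lists, which enter no comparison above, ranged over 3770 to 17500 FPKM for 2 pancreas genes, 1050 to 2270 FPKM for 3 epidermis genes (krt5 was below 1 FPKM), 43.8 to 593 FPKM for 2 lens genes, 143 to 686 FPKM for 2 photoreceptor genes and 2.76 to 4.68 FPKM for 6 germ cell and oocyte genes, of which 5 were below 1 FPKM.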
